A study of Mus musculus with 51 samples.

Results

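The primary cilium genes examined here are 48 mouse genes whose proteins build, load or anchor the primary cilium, the single antenna-like projection on which vertebrate cells receive Hedgehog signals. They were taken as the rows of the count table that carry these gene names, so each of the 48 matched 1 of the 52636 rows. By role, 11 encode subunits of the intraflagellar transport (IFT) complex B, 6 encode IFT complex A, and 4 encode motors. Another 5 encode proteins of membrane entry and small GTPases of the cilium. A further 6 belong to the BBSome, 11 to the transition zone at the base of the shaft, and 4 to the basal body, while Iqce anchors the EvC complex.

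IFT-B trains driven by kinesin-2 carry cargo to the ciliary tip, and IFT-A trains driven by dynein-2 bring it back. The transition zone is a gate that decides which membrane proteins enter, and the BBSome carries signalling receptors out. In Hedgehog signalling, Patched keeps Smoothened out of the cilium until ligand binds, and active Smoothened in the cilium switches Gli transcription factors on, with Gli1 and Ptch1 among the textbook targets.

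RNA was sequenced from sorted epithelial cells of mouse oesophagus and other gut sites, in 51 libraries of 14 groups made from total RNA. Krt5-SmoM2 mice carry SmoM2, an always-active form of Smoothened. The name pairs it with Krt5, a keratin gene of basal epithelial cells. Of the Krt5-SmoM2 groups, Sox9cKO (n = 4) also carried Sox9fl/fl and was sorted as EpCAM-high, and SmoM2 (n = 6, strain CD1) was sorted as EpCAM-high. Krt5-SmoM2-Krt8YFP cells of mixed background were sorted as EpCAM-high with YFP (K8YFP+, n = 3) or without it (K8YFP-, n = 3). Krt5-SmoM2 cells at 3 and at 7 weeks were sorted as EpCAM-high (3w Hi, 7w Hi) or EpCAM-low (3w Lo, 7w Lo), with n = 4 each. The labels do not say from which event the weeks run. Without SmoM2, Krt8YFP mice of mixed background gave EpCAM-high, YFP-positive columnar cells (n = 4) and EpCAM-high, YFP-negative squamous cells (n = 3) of the junction. They also gave YFP-positive cells of stomach (n = 2) and gut (n = 2), and EpCAM and YFP cells of embryonic oesophagus at E13.5 (n = 2). Wild-type (WT) oesophageal cells of strain CD1 were sorted as EpCAM-low (n = 6). The labels do not tie libraries to animals, so the p-values measure the spread between libraries, which may be partly technical.

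Library totals ran from 1606571 to 12262365 counts, and the lowest was a K8YFP+ library. Levels are given as CPM, counts scaled to a common library total. Gene-wise differences are log2 folds from edgeR's quasi-likelihood test. Their standard errors (SE) are approximate, computed as the absolute log2 fold over the square root of the test's F value. A gene is called where its p, adjusted by Benjamini-Hochberg over all genes tested, is under 0.05. Smo averaged 208 ± 33.3 CPM in SmoM2 and 75 ± 12.7 CPM in WT cells (SD, n = 6 each). Reads from SmoM2 itself may count as Smo, which was not tested. Sox9 was 51.7, 45.7, 127 and 45.8 CPM in Sox9cKO libraries, against 72.7 to 194 CPM in SmoM2 libraries, so 1 Sox9cKO library lay within the SmoM2 range. Reads outside the floxed part of Sox9 can still count. Epcam averaged 300 ± 45.6 CPM in SmoM2 (n = 6), against 161 ± 21.3 CPM in WT (SD, n = 6), as the gates are labelled. Krt8 averaged 21.8 ± 15.8 CPM in K8YFP+, against 1.4 ± 1.67 CPM in K8YFP- (SD, n = 3 each). Among the 15 pairs of WT libraries, the reduced chi-square of the counts was 1.83 for replicates 3 and 5 and 2.31 for replicates 4 and 6, against 9.94 to 31.5 for the other 13 pairs. All WT libraries were kept as 6 and summed in pairs as an alternative. Low values were found in other groups too, where no libraries were summed. They were 2.5 for 3w Hi replicates 1 and 3 and 2.59 for 3w Lo replicates 1 and 3. For 7w Hi and for 7w Lo replicates 1 and 2 they were 3.48 and 3.12. Columnar junction replicates 1 and 2 had 3.96, and the squamous junction pairs 3.56 to 4.92.

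RefSeq promoters (250 bases before to 50 after the start, build GRCm38.p6) were found for 43 of the 48 genes, which gave 47 promoters. Ift80, Ift81, Ift122, Tmem67 and Iqce had no entry. The X-box is the DNA motif bound by RFX factors, which are known to drive cilium genes. Its 1-arm form, GTTGCC, searched on both strands, lay in 21 of the 47 promoters (44.7%), and in 4111 of all 32851 promoters (12.5%). The form with both arms, GTTNCCNNGGNAAC, which can hold the shorter form, lay in 3 of 47 (6.38%) and in 148 of all promoters (0.451%). The letters of a GLI site, TGGGTGGTC, lay in 0 of 47 and in 83 of all promoters (0.253%). These letters were chosen after several forms had been tried, and a match is a description of the window. The 1-arm form, at 6 letters against 14 and 9, is the shortest pattern and the most frequent over all promoters too. X-box matches are printed, with the motif in capitals, because this form was the most frequent of the 3 patterns searched. The first 3 are all the promoters that match the pattern with both arms, which fixes the spacing between them. The others match the shorter form and belong to genes whose levels are described with the comparisons. A shorter form can have a second arm at another spacing beside it, as in Tctn3, and such cases were not counted.
Bbs7, chr3:36613487-36613520, minus strand: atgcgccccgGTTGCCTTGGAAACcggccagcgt
Mks1, chr11:87853181-87853214, plus strand: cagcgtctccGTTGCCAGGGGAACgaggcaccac
Tctn1, chr5:122264411-122264434, minus strand: ggctgtgactGTTGCCCGGGCAAC
Tctn3, chr19:40612356-40612381, minus strand: gctcccagcgGTTGCCaggtaacggg
Kif17, chr4:138262168-138262193, plus strand: cgtcacggagGTTGCCcagcaacggc
Wdr35, chr12:8974031-8974050, plus strand: ggcggcggtgGTTGCCaggc
Arl13b, chr16:62847206-62847231, minus strand: agacgctccaGTTGCCtagttaccag

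All 48 genes were detected in WT cells. Per kilobase of exon, averaged over the 14 groups, Ift20 was the most abundant at 15.4 CPM per kb, followed by Arl13b at 9.88 and Ift52 at 7.81 CPM per kb. Kif17 was the lowest at 0.474 CPM per kb. Exons of Ttbk2 overlap those of Cdan1 on the same strand over 29.9% of their bases. Exons of Inpp5e overlap Pmpca over 20.3%, and those of Tctn1 overlap Hvcn1 over 19% of their bases, both on the opposite strand. The strand setting of the counting is not given in the sources used here, so the counts of these 3 genes are uncertain.

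Summed over the 48 genes, the mean level was higher in SmoM2 than in WT cells and in the EpCAM-high than in the EpCAM-low gate, and lower in K8YFP+ than in K8YFP- cells. SmoM2 cells held 836 ± 49.3 CPM and WT cells 699 ± 42.2 CPM (SD, n = 6 each), and the libraries did not overlap. At 7 weeks the sum was 950 ± 31.7 CPM in Hi and 811 ± 18.9 CPM in Lo cells, again without overlap (SD, n = 4 each). At 3 weeks it was 848 ± 56.7 CPM in Hi and 768 ± 21.6 CPM in Lo cells, and the ranges met, at 791 to 905 CPM in Hi and 748 to 792 CPM in Lo. Much of this 3-week difference came from Arl13b (means of 129 CPM in Hi and 92.9 CPM in Lo) and Ttbk2 (52.7 and 31 CPM). There 29 of the 48 genes had a log2 fold above 0. K8YFP+ cells held 545 ± 67.6 CPM and K8YFP- cells 889 ± 31.5 CPM (SD, n = 3 each), with no overlap and the lower sum in the group with less Gli1. Between the times the Lo cells ran against Gli1, with the sum at 811 CPM in 7w Lo and 768 CPM in 3w Lo, while Gli1 was 8.35 ± 2.49 CPM in 7w Lo and 16.6 ± 0.853 CPM in 3w Lo (SD, n = 4 each).

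The highest sums were found in groups with little Gli1. Embryonic oesophagus reached 1273 ± 107 CPM (SD, n = 2), with Gli1 at 4.87 ± 1.79 CPM. Columnar junction cells reached 1036 ± 37.8 CPM (SD, n = 4), with Gli1 at 0.207 ± 0.154 CPM. Squamous junction cells held 677 ± 19.1 CPM (SD, n = 3), with Gli1 at 16.9 ± 2.98 CPM. Sox9cKO cells, with the highest mean Gli1 at 286 ± 64.8 CPM (SD, n = 4), held sums of 935, 735, 873 and 1007 CPM. Gut at 389 CPM, K8YFP+ cells and stomach at 576 CPM had the 3 lowest sums (n = 2 each for gut and stomach). With library sizes scaled by edgeR's TMM factors the lead of the first groups shrank. The sums were then 947 for embryo and 920 for columnar junction cells, against 730 for squamous junction and 892 for Sox9cKO cells. On that scale SmoM2 held 802 and WT 748, 7w Hi 914 and 7w Lo 798, 3w Hi 831 and 3w Lo 775, and K8YFP+ 647 and K8YFP- 867, so each pair kept its order. Each sum weighs long and abundant transcripts most, and in bulk RNA fewer cells with cilia and less RNA per cell cannot be told apart.

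**Figure D1:**
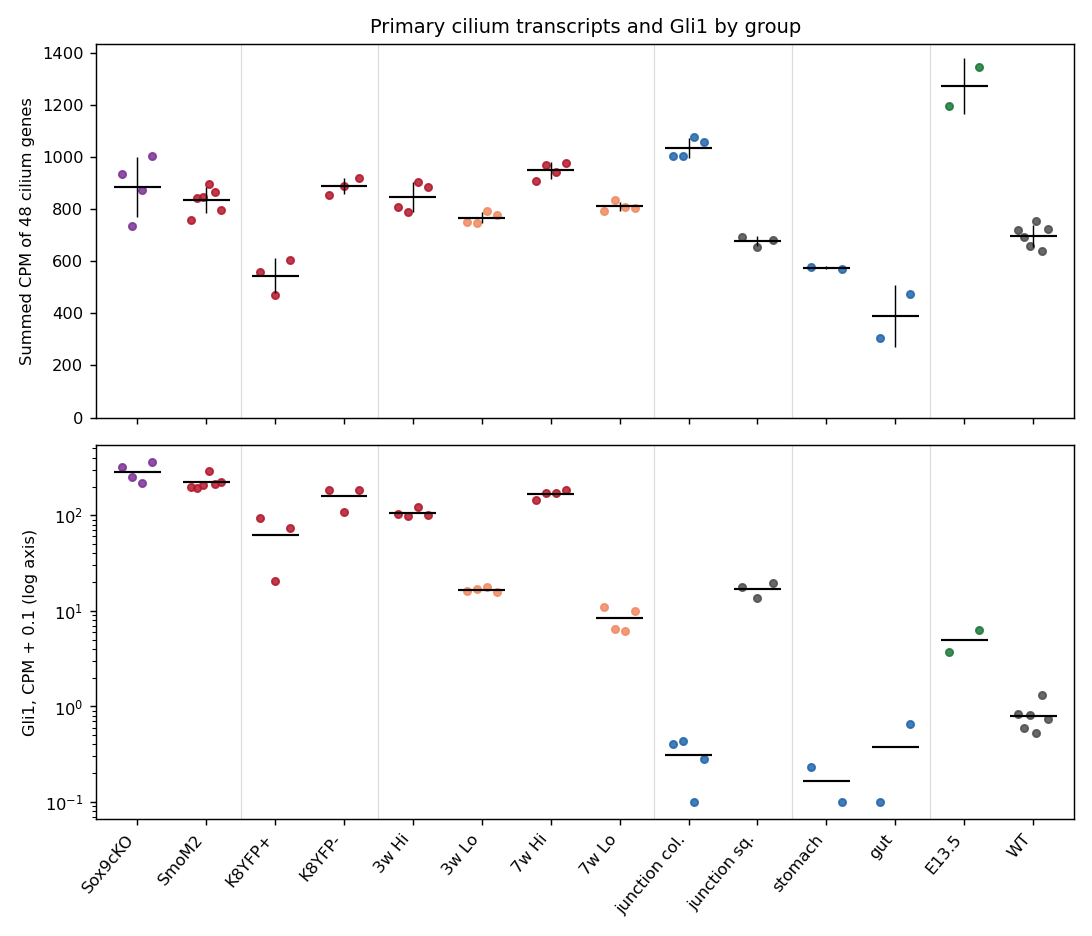
Summed CPM of the 48 primary cilium genes (upper panel, linear axis) and Gli1 CPM plus 0.1 (lower panel, log axis) in each library of the 14 groups; points are libraries, and the bar and whiskers of the upper panel are the mean and SD. Embryo and columnar junction lead the upper panel at means of 1273 and 1036 CPM while their Gli1 means were 4.87 and 0.207 CPM.

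Setting SmoM2 against WT asks what active Smoothened does to the cilium transcripts, and here genotype and EpCAM gate differ together. The libraries also differ in the leading number of their raw names, which the labels do not explain. Of the 48 genes, all tested, 18 were higher and 6 lower in SmoM2 cells, and 24 were not called. That is 37.5% higher and 12.5% lower, where 26.2% and 23.3% of all tested genes were called higher and lower. With WT pairs summed 13 were higher and 6 lower, and without a filter on low counts 13 were higher and 7 lower. The shares of all genes under these settings are not given. In the main fit the median log2 fold was 0.11 for the 48 genes and 0.01 for all genes. Gli1 was 194, 210 and 288 CPM at the lowest, median and highest SmoM2 library, against 0.428, 0.674 and 1.22 CPM in WT, a log2 fold of 8.12 ± 0.19 (SE, adjusted p = 1.41e-13). Ptch1, the receptor gene, had a log2 fold of 6.06 ± 0.13 (SE, adjusted p = 1.22e-13).

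Tulp3, the adaptor that with IFT-A carries receptors such as Gpr161 into the cilium, had the smallest adjusted p. It was 39.8, 43.1 and 63.5 CPM at the lowest, median and highest SmoM2 library, against 8.36, 9.82 and 12 CPM in WT. Every SmoM2 library lay above every WT library, with a log2 fold of 2.09 ± 0.12 (SE, adjusted p = 5.2e-09). Kif17, a kinesin-2 motor, was 3.16 to 7.26 CPM (median 4.15) in SmoM2, against 0.609 to 1.65 CPM (median 0.748) in WT. The groups were again apart, with a log2 fold of 2.15 ± 0.29 (SE, adjusted p = 2.17e-05), on the few counts that this gene has. Ttbk2, the kinase that starts ciliary growth from the mother centriole, was 29.4 to 45.2 CPM (median 34.1) in SmoM2, against 13.4 to 21.2 CPM (median 16) in WT. It rose by 0.95 ± 0.14 on the log2 scale (SE, adjusted p = 7.69e-05) without overlap. Ift46, of IFT-B, was 35.4 to 62.7 CPM (median 42.3) in SmoM2, against 18.4 to 23.9 CPM (median 22.1) in WT, with a log2 fold of 0.92 ± 0.13 (SE, adjusted p = 3.42e-05).

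By role, 4 of 6 IFT-A genes rose (Ift43, Ttc21b, Wdr19, Wdr35) and Ift122 fell, and in IFT-B 2 of 11 rose and Ift20 fell. In the transition zone 5 of 11 rose, namely B9d1, B9d2, Tctn1, Tctn3 and Tmem67, and 2 fell. Cep290, a large scaffold of that zone, was 27.8 to 45.3 CPM (median 38.1) in SmoM2, against 45.7 to 63.9 CPM (median 56.9) in WT. All SmoM2 values lay below all WT values, and the log2 fold was -0.69 ± 0.13 (SE, adjusted p = 0.000345). Ift20, the IFT-B subunit that also sits at the Golgi, was 14.2 to 18 CPM (median 14.9) in SmoM2, against 18.3 to 36.8 CPM (median 22.3) in WT. Its log2 fold was -0.74 ± 0.16 (SE, adjusted p = 0.0015). Rpgrip1l, another transition zone scaffold, averaged 13.1 ± 2.04 CPM in SmoM2 and 16.3 ± 1.58 CPM in WT (SD, n = 6 each), a log2 fold of -0.45 ± 0.12 (SE, adjusted p = 0.00492). Bbs7, a BBSome subunit, averaged 1.48 ± 0.415 CPM in SmoM2 and 2.34 ± 0.739 CPM in WT (SD, n = 6 each), a log2 fold of -0.79 ± 0.25 (SE, adjusted p = 0.017).

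Other cilium genes were taken from a second list. In SmoM2 cells 26.2% of all tested genes were higher and 23.3% lower, with a median log2 fold of 0.01. Of 50 genes of the second list tested, 11 were higher and 5 lower, also with a median log2 fold of 0.01. The higher ones were led by Wdpcp, a planar polarity effector of ciliogenesis (1.09 ± 0.13, adjusted p = 6.58e-06), the inversin-compartment kinase gene Nek8 (0.98 ± 0.12, adjusted p = 1.2e-05) and Rab3ip, which activates Rab8 (0.83 ± 0.14, adjusted p = 0.000195), as log2 folds ± SE. Rab11a, of the vesicle route to the cilium, fell (-0.73 ± 0.10 on the log2 scale, adjusted p = 2.67e-05), as did the distal appendage gene Cep83 (-0.73 ± 0.12, adjusted p = 0.000136). Of 11 genes for Hedgehog steps at the cilium, which include Gli1, Ptch1 and Smo, 9 rose and 0 fell. Among them Gpr161, the ciliary receptor that restrains the pathway and a cargo of Tulp3, had a log2 fold of 2.93 ± 0.12 (SE, adjusted p = 6.7e-11). Beside these values, 20 cell cycle genes summed to 1137 ± 148 CPM in SmoM2 and 1595 ± 399 CPM in WT, with 0 higher and 8 lower. Squamous differentiation markers summed to 7087 CPM in SmoM2 and 16403 CPM in WT cells, and all 6 simple epithelial markers tested rose, Epcam among them. The part of these markers in the cilium result was not tested.

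**Figure D2:**
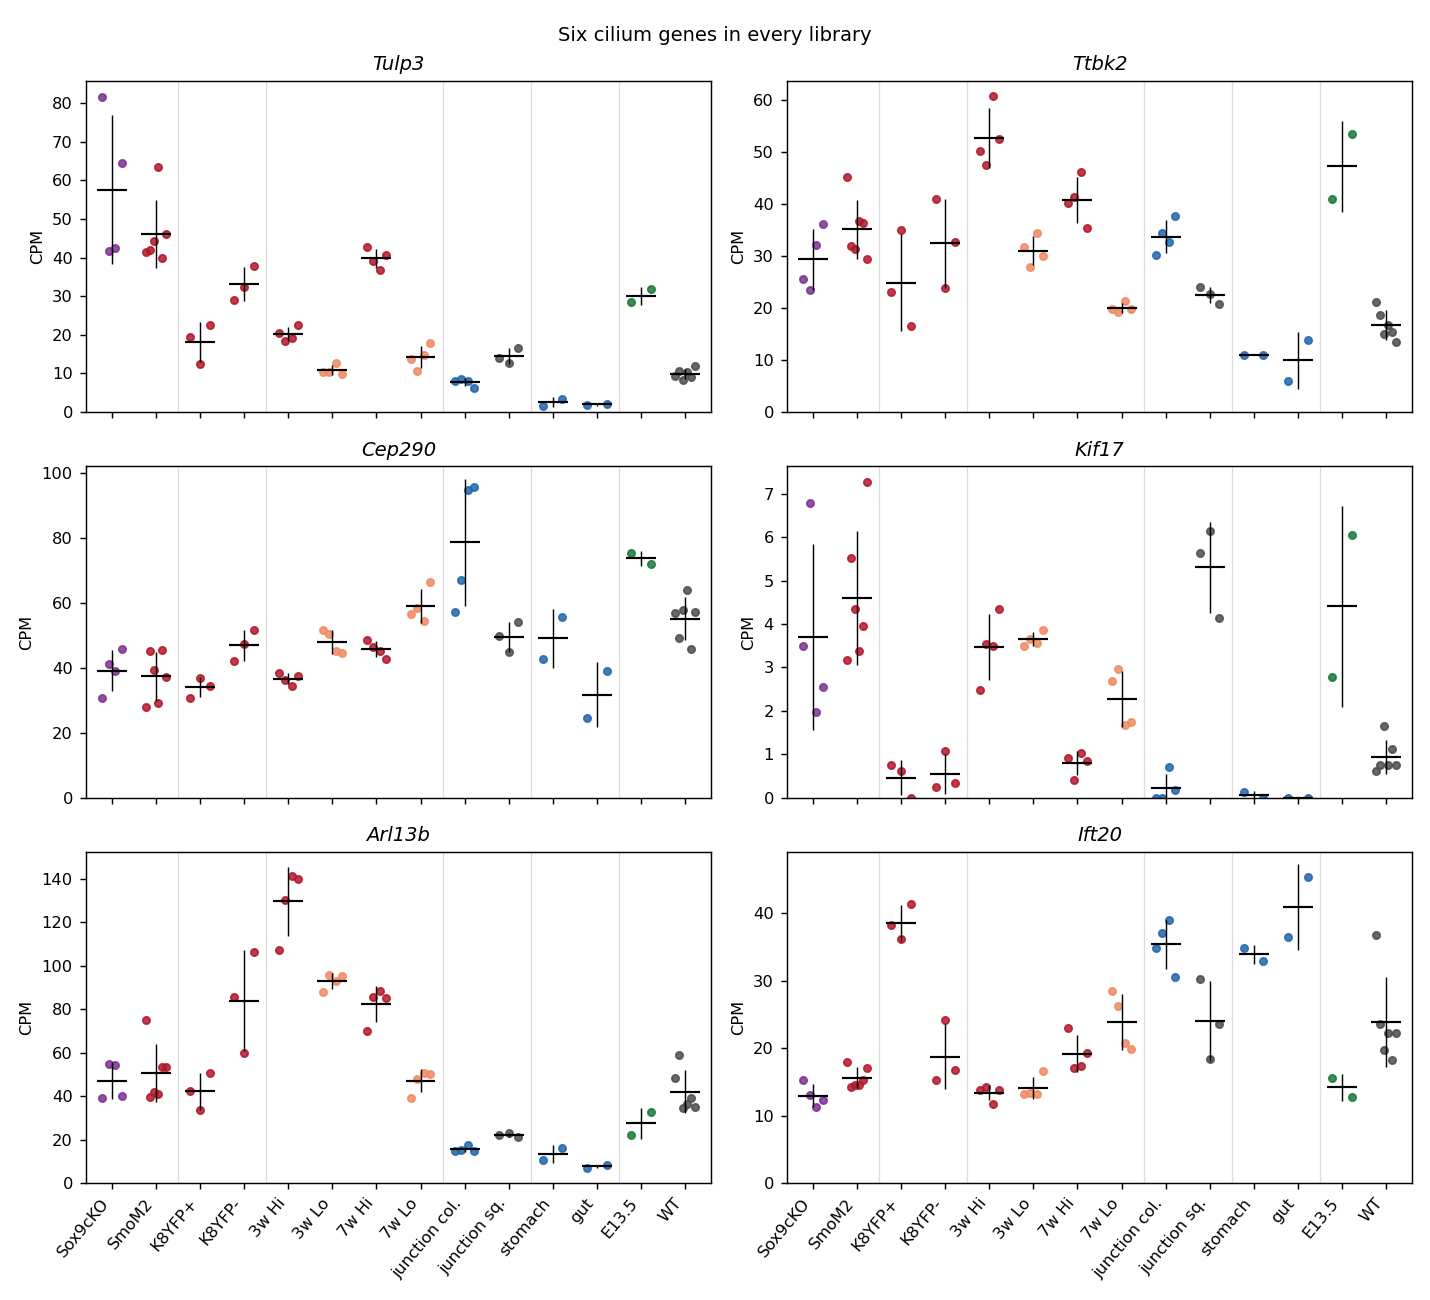
CPM of Tulp3, Ttbk2, Cep290, Kif17, Arl13b and Ift20 in every library of the 14 groups; points are libraries, and bars and whiskers are the mean and SD. Tulp3 averaged 46.2 CPM in SmoM2 and 9.92 CPM in WT, while Arl13b was highest in 3w Hi at 129 CPM and Ift20 was higher in K8YFP+ (38.6 CPM) than in K8YFP- (18.7 CPM).

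SmoM2 cells of the EpCAM-low gate can be set against WT cells of the same gate, and they share the WT libraries with the comparison above. Here too the leading number of the raw names differs, and it cannot be told apart from genotype. At 7 weeks, 13 of the 48 genes were higher and 0 lower in Lo cells (27.1%), where 19.4% and 21% of all tested genes were called higher and lower. At an unadjusted p under 0.05, 14 were higher and 2 lower, DESeq2 called 11 higher and 0 lower, and the median log2 fold was 0.14 for the 48 genes and 0.01 for all genes. In a fit of all 14 groups 8 were higher, and the call of Dync2h1 was lost (0.33, adjusted p = 0.0932). At 3 weeks, 8 were higher and 12 lower in Lo cells (16.7% and 25%), where 23.1% and 24.3% of all tested genes were called. There the median log2 fold was 0.05 for the 48 genes and 0.01 for all genes. Gli1 had log2 folds of 3.42 ± 0.22 at 7 weeks and 4.46 ± 0.20 at 3 weeks over WT (SE). For Ptch1 these were 2.12 ± 0.11 and 2.5 ± 0.11. In 7w Lo cells 15 of the 20 cell cycle genes were higher and 0 lower than in WT.

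In 7w Lo cells the 4 calls with the smallest adjusted p were 2 IFT-B subunits and 2 motors. Ift80 averaged 27.2 ± 1.76 CPM in 7w Lo and 17.1 ± 1.76 CPM in WT, a log2 fold of 0.55 ± 0.13 (SE, adjusted p = 0.00128). Kif17 averaged 2.27 ± 0.649 CPM in 7w Lo and 0.936 ± 0.388 CPM in WT (1.14 ± 0.28, adjusted p = 0.00274). Ift27, a small GTPase of IFT-B, averaged 6.15 ± 1.14 CPM in 7w Lo and 3.2 ± 0.802 CPM in WT (0.82 ± 0.21, adjusted p = 0.00304). These 3 genes stood above WT by more than the SD of either group (n = 4 and n = 6). Dync2h1, the heavy chain of dynein-2, averaged 60.4 ± 6.11 CPM in 7w Lo and 44.2 ± 4.12 CPM in WT (0.33 ± 0.09, adjusted p = 0.00445). Leaving out WT replicate 1, 2, 3 or 6 gave 1 lower gene, and leaving out WT replicate 5 gave 2.

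In 3w Lo cells the leading calls were Arl13b, the GTPase of the ciliary membrane, Kif17, Ttbk2 and Dync2h1. Arl13b was 88, 95.7, 92.8 and 95.1 CPM in 3w Lo, against 34.7 to 59 CPM (median 37.6) in WT, so the groups were far apart (log2 fold 1.08 ± 0.13 SE, adjusted p = 6.66e-07). Kif17 was 3.49 to 3.87 CPM in 3w Lo, a log2 fold of 1.88 ± 0.26 over WT (SE, adjusted p = 3.17e-06). Ttbk2 averaged 31 ± 2.79 CPM in 3w Lo and 16.7 ± 2.8 CPM in WT (0.83 ± 0.12, adjusted p = 3.88e-06), and Dync2h1 69 ± 4.65 CPM in 3w Lo and 44.2 ± 4.12 CPM in WT (0.58 ± 0.09, adjusted p = 8.84e-06). Ift20 was lower, at 13.2, 13.4, 13.2 and 16.6 CPM in 3w Lo, all below the WT range of 18.3 to 36.8 CPM (-0.82 ± 0.17, adjusted p = 0.000345). Rpgrip1l averaged 12.3 ± 2.13 CPM in 3w Lo and 16.3 ± 1.58 CPM in WT (-0.47 ± 0.11, adjusted p = 0.0018). The IFT-B core subunit gene Ift52 averaged 18.3 ± 2.01 CPM in 3w Lo and 23.1 ± 2.31 CPM in WT (-0.40 ± 0.10, adjusted p = 0.00208). Kif3b, a kinesin-2 subunit gene, averaged 13.2 ± 2.07 CPM in 3w Lo and 17.6 ± 3.46 CPM in WT (-0.48 ± 0.14, adjusted p = 0.00581). The basal body genes Cep89, Ofd1 and Cep164 fell as well. Tulp3 had a log2 fold of 0.08 ± 0.13 in 3w Lo (adjusted p = 0.617) and of 0.42 ± 0.12 in 7w Lo (adjusted p = 0.00959) over WT.

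Within SmoM2 mice the EpCAM-high gate was set against the EpCAM-low gate at each time. At 7 weeks 11 of the 48 genes were higher and 4 lower in Hi cells (22.9% and 8.33%), where 15.5% and 16.8% of all tested genes were called. The median log2 fold was 0.22 for the 48 genes and -0.02 for all genes. At 3 weeks 4 were higher and 1 lower (8.33% and 2.08%), where 7.37% and 7.84% of all genes were called, with medians of 0.06 and -0.01. Same-numbered libraries deviated together at 3 weeks, and with the replicate number as a block 6 genes were higher and 4 lower there. In a fit of all 14 groups 7 were higher at 7 weeks, and 2 higher and 0 lower at 3 weeks. Without 7w Hi replicate 4 the 11 higher genes at 7 weeks became 6. At 3 weeks the 4 higher genes became 2 without 3w Hi replicate 3 or without any one of 3w Lo replicates 1 to 3. Gli1 differed between the gates by 4.26 ± 0.15 at 7 weeks and by 2.62 ± 0.14 at 3 weeks, and Ptch1 by 4.27 ± 0.13 and 2.86 ± 0.12, as log2 folds ± SE. 

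Tulp3 was again the gene with the smallest adjusted p. At 7 weeks it was 42.7, 39, 36.8 and 40.7 CPM in Hi cells, against 13.8, 10.7, 14.9 and 17.8 CPM in Lo cells, a log2 fold of 1.42 ± 0.13 (SE, adjusted p = 4.44e-09). At 3 weeks it was 20.6, 18.4, 19.3 and 22.6 CPM in Hi cells, against 10.5, 10.5, 12.7 and 9.85 CPM in Lo cells, a log2 fold of 0.84 ± 0.13 (SE, adjusted p = 7.62e-05). The gates did not overlap at either time. Ttbk2 at 7 weeks was 40.2, 41.3, 46.1 and 35.4 CPM in Hi cells, against 19.8, 19.2, 21.3 and 19.8 CPM in Lo cells (log2 fold 0.98 ± 0.13 SE, adjusted p = 2.07e-06). At 3 weeks Ttbk2 was 50.1, 47.5, 60.8 and 52.5 CPM in Hi cells, against 31.7, 27.8, 34.4 and 30 CPM in Lo cells (log2 fold 0.71 ± 0.12 SE, adjusted p = 0.000204). The kinase gene thus stood apart between the gates at both times, with the overlap of its exons with Cdan1 as a limit.

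Arl13b was 70, 85.7, 88.2 and 85.2 CPM in 7w Hi cells, against 39.2, 48, 50.8 and 50.3 CPM in 7w Lo cells (log2 fold 0.76 ± 0.15 SE, adjusted p = 0.000325). At 3 weeks it was 107, 130, 141 and 140 CPM in Hi cells, against 88, 95.7, 92.8 and 95.1 CPM in Lo cells (0.43 ± 0.14, adjusted p = 0.0466). That 3-week call was lost in 7 of the 8 fits that left out 1 library. Ift57, of the outer part of IFT-B, was 12, 12.8, 10.3 and 12.8 CPM in 7w Hi, against 6.83, 5.73, 7.2 and 5.77 CPM in 7w Lo (0.85 ± 0.16, adjusted p = 0.000263), with no overlap. At 3 weeks Cep89, of the distal appendages, averaged 18.9 ± 3.85 CPM in Hi and 12.4 ± 0.996 CPM in Lo (0.56 ± 0.17, adjusted p = 0.0241), a call lost in 5 of the 8 fits that left out 1 library.

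By role, 4 of the 5 genes for membrane entry and small GTPases rose at 7 weeks. They were Tulp3, Arl13b, Arl3, which releases lipid-anchored cargo in the cilium, and Arl6, which recruits the BBSome. Of the 6 IFT-A genes 4 rose (Ift43, Ift122, Ttc21b, Wdr35), against 2 of 11 in IFT-B (Ift57, Ift80) and 0 of 11 in the transition zone, and Ttbk2 was the remaining higher gene. Cep290 fell at both times: it was 48.6, 46.4, 45.2 and 42.6 CPM in 7w Hi, against 56.5, 58.3, 54.2 and 66.3 CPM in 7w Lo (-0.41 ± 0.09, adjusted p = 0.00149). At 3 weeks it was 38.4, 36.2, 34.3 and 37.3 CPM in Hi, against 51.4, 50.4, 45 and 44.4 CPM in Lo (-0.44 ± 0.10, adjusted p = 0.00197), again without overlap. In a fit of all 14 groups the 3-week value of Cep290 was -0.43 (adjusted p = 0.0628). Kif17 was 0.909, 0.413, 1.03 and 0.84 CPM in 7w Hi, against 2.68, 2.96, 1.68 and 1.75 CPM in 7w Lo (-1.53 ± 0.33, adjusted p = 0.000959). Thus Kif17 was lower in the EpCAM-high gate at 7 weeks, while it was higher in SmoM2 than in WT cells. Bbs2, of the BBSome, averaged 14.2 ± 2.06 CPM in 7w Hi and 23.5 ± 4.05 CPM in 7w Lo (-0.76 ± 0.15, adjusted p = 0.000316). Cep164, of the distal appendages, averaged 42.6 ± 5.36 CPM in 7w Hi and 52.1 ± 5.62 CPM in 7w Lo (-0.33 ± 0.12, adjusted p = 0.0327), a call lost in 4 of the 8 fits that left out 1 library, without the filter on low counts, in DESeq2 and in a fit of all 14 groups.

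SmoM2 and WT on the one hand and 7w Hi and 7w Lo on the other are groups that share no library. Their lists of higher genes had 7 in common, Arl6, Ift43, Ift57, Ttbk2, Ttc21b, Tulp3 and Wdr35, which is 38.9% of the 18 and 63.6% of the 11. Over all tested genes the higher lists of these comparisons shared 39.5% and 62.5%, so the cilium genes' shares lie near that background. Cep290 was lower in both, Kif17 was higher in the first and lower in the second, and Ift122 the reverse. With 3w Hi against 3w Lo the first comparison had Ttbk2 and Tulp3 in common among higher genes, 11.1% of the 18 and 50% of the 4, against 20.9% and 69.7% over all genes, and Cep290 among lower genes. The 3-week and 7-week lists of higher genes had 3 in common, Arl13b, Ttbk2 and Tulp3, which is 75% of the 4 and 27.3% of the 11, against 85.8% and 40.7% over all genes.

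Whether the difference between gates itself differed between 7 and 3 weeks was tested as an interaction. Of the 48 genes 0 were called by edgeR and 0 by DESeq2, where 1.55% of all tested genes were called as larger and 0.759% as smaller at 7 weeks. At an unadjusted p under 0.05 there were 5 larger and 1 smaller, Tulp3, Ift57, Wdr35, Ttc21b and Dync2h1 being larger at 7 weeks and Kif17 smaller. Leaving out 7w Lo replicate 4 gave 1 called as larger. With the replicate number as a block 5 were called as larger (Arl13b, Dync2h1, Ift57, Tulp3, Wdr35) and Kif17 as smaller, with 0.60 for Tulp3 (adjusted p = 0.0157) and -1.37 for Kif17 (adjusted p = 0.0304). Same-numbered libraries of the 2 gates deviated together at 3 weeks (r 0.165 to 0.295), but at 7 weeks the lowest r was 0.0746. The interaction was 0.59 ± 0.18 for Tulp3 (adjusted p = 0.104) and -1.40 ± 0.42 for Kif17 (adjusted p = 0.0828) on the log2 scale ± SE. For Gli1 it was 1.64 ± 0.20 (adjusted p = 5.64e-05). Beside the gates, squamous differentiation markers summed to 4966 CPM in 7w Hi, against 14157 CPM in 7w Lo, and to 3008 CPM in 3w Hi, against 5480 CPM in 3w Lo. Of the 20 cell cycle genes 0 were higher and 1 lower in 7w Hi, and 1 was higher and 5 lower in 3w Hi, than in the Lo cells of the same time. Their part in the results was not tested.

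**Figure D3:**
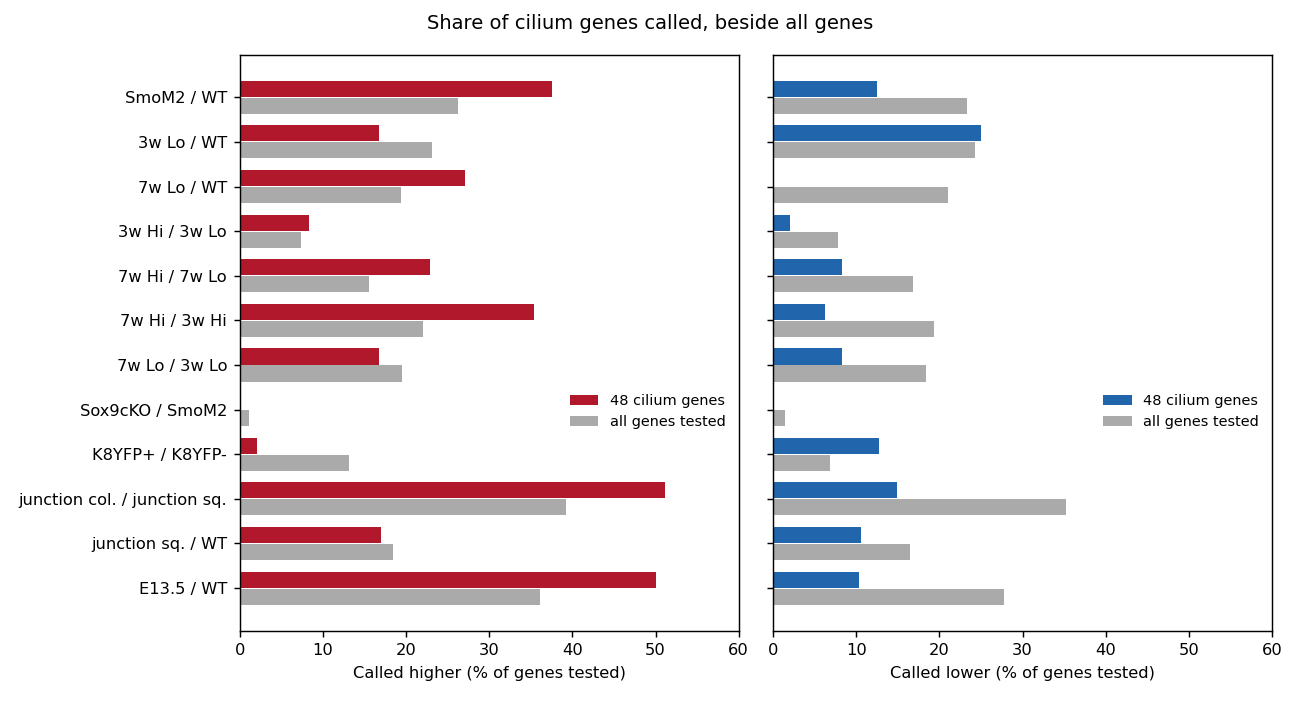
Percent of the 48 primary cilium genes and of all tested genes called higher or lower (adjusted p under 0.05, edgeR) in 12 comparisons. In 7w Hi against 7w Lo, 22.9% of the cilium genes and 15.5% of all genes were higher, while 8.33% and 16.8% were lower.

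The 7-week and 3-week cells of one gate differ in time and also in the leading number of their raw names, which the labels do not explain, so these cannot be told apart. In Hi cells 17 of the 48 genes were higher and 3 lower at 7 weeks (35.4% and 6.25%), where 22% and 19.4% of all tested genes were called, with medians of 0.30 and 0.02 for the log2 fold. All 6 IFT-A genes were among the higher ones, with 5 of 11 transition zone genes. Tulp3 had a log2 fold of 0.92 ± 0.12 (adjusted p = 3.68e-06) and Kif3b, which averaged 25.3 ± 2.14 CPM in 7w Hi and 15 ± 2.07 CPM in 3w Hi, of 0.70 ± 0.14 (adjusted p = 0.000495). Kif17 fell (-2.15 ± 0.31, adjusted p = 9.87e-06) and so did Arl13b (-0.71 ± 0.14, adjusted p = 0.00046). Gli1 had a log2 fold of 0.60 ± 0.12 and Ptch1 of 1.02. These values share the Hi libraries with the comparison of gates.

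In Lo cells 8 genes were higher and 4 lower at 7 weeks (16.7% and 8.33%), where 19.5% and 18.4% of all tested genes were called, with medians of 0.17 and 0.02. Iqce, whose protein tethers the EvC complex that relays Smoothened activity, averaged 9.59 ± 1.78 CPM in 7w Lo and 5.15 ± 0.596 CPM in 3w Lo (log2 fold 0.83 ± 0.18 SE, adjusted p = 0.000704). Kif3b averaged 20.9 ± 0.879 CPM in 7w Lo and 13.2 ± 2.07 CPM in 3w Lo (0.61 ± 0.15, adjusted p = 0.00248). Arl13b fell (-1.04 ± 0.15, adjusted p = 1.08e-05) and Ttbk2 fell (-0.69 ± 0.13, adjusted p = 0.00024). The 4 lower genes became 2 without 3w Lo replicate 3 or 4 or without 7w Lo replicate 4. Gli1 had a log2 fold of -1.04 ± 0.16 (adjusted p = 2.66e-05) and Ptch1 of -0.39.

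Among EpCAM-high SmoM2 cells, those with YFP from Krt8YFP held a lower summed level of cilium transcripts than those without. Kif17, at 6 counts over the K8YFP+ libraries and 15 over the K8YFP- libraries, did not pass the filter on low counts. Of the 47 genes tested, 1 was higher and 6 lower in K8YFP+ cells (2.13% and 12.8%), where 13.1% and 6.83% of all tested genes were called. The median log2 fold was -0.40 for these genes and -0.03 for all genes, and 40 genes were not called. Same-numbered libraries deviated together, and with the replicate number as a block 1 was higher and 9 lower. A fit of all 14 groups gave 18 lower. Without K8YFP- replicate 3 1 was lower, and the adjusted p of Ift122, Dync2h1 and Cep164 was then 0.0505, 0.0621 and 0.0586. The call of Dync2h1 was also lost without K8YFP+ replicate 3.

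Gli1 was 92.8, 20.5 and 73.1 CPM in K8YFP+, against 184, 108 and 182 CPM in K8YFP-, and no K8YFP+ library reached the K8YFP- range. Its log2 fold was -0.96 ± 0.42 (SE, adjusted p = 0.136), and with the block it was -1.07 (adjusted p = 0.00519). Ptch1 had a log2 fold of -1.0 ± 0.48 (adjusted p = 0.174), and of -1.18 with the block (adjusted p = 0.00944). Tulp3 was 19.4, 12.4 and 22.5 CPM in K8YFP+, against 29.1, 32.5 and 37.9 CPM in K8YFP-. These levels did not overlap, but the log2 fold of -0.47 ± 0.20 was not called (SE, adjusted p = 0.14).

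Ift20 was the 1 higher gene, at 38.2, 36.1 and 41.4 CPM in K8YFP+, against 15.2, 24.2 and 16.7 CPM in K8YFP-. It stood apart with a log2 fold of 1.44 ± 0.20 (SE, adjusted p = 0.00478). Ift80, an IFT-B subunit, was 8.95, 6.22 and 12.8 CPM in K8YFP+, against 29.7, 30.6 and 28.6 CPM in K8YFP- (-1.26 ± 0.23, adjusted p = 0.0109). Ift122, the IFT-A scaffold, was 6.71, 4.98 and 4.98 CPM in K8YFP+, against 16.2, 17.1 and 15.4 CPM in K8YFP- (-1.14 ± 0.22, adjusted p = 0.0133). Dync2h1, the retrograde motor, was 30.1, 14.3 and 23.6 CPM in K8YFP+, against 58.2, 58.2 and 75.5 CPM in K8YFP- (-1.09 ± 0.22, adjusted p = 0.0148). All 3 were lower in every K8YFP+ library than in any K8YFP- library. Cep164 was 18.6, 16.8 and 22.3 CPM in K8YFP+, against 39.4, 48.8 and 42.9 CPM in K8YFP- (-0.79 ± 0.17, adjusted p = 0.0165), and Ift57 and the IFT-A gene Wdr35 were the other lower calls.

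Of the 6 lower genes, Ift57, Ift80, Ift122 and Wdr35 were higher in 7w Hi than in 7w Lo, which is 66.7% of the 6 and 36.4% of the 11, and these groups share no library. Over all tested genes these shares were 23.1% and 9.17%. The 6 lower genes became 1 without K8YFP- replicate 3. Of 49 other cilium genes tested, Rab11a rose and 6 fell, where 13.1% and 6.83% of all tested genes were called. Among the lower ones were Evc2 (-1.34 ± 0.22, adjusted p = 0.00744) and Evc (-1.23 ± 0.32, adjusted p = 0.0333), as log2 folds ± SE. Evc and Evc2 encode the complex that Iqce anchors. Of the genes for Hedgehog steps at the cilium 0 rose and 5 fell, namely Gli2, Gli3 and Gpr161 beside Evc and Evc2, which are on both lists, and of the genes for cilium removal 0 rose and 4 fell. Other cell states moved too. Cell cycle genes summed to 459 CPM in K8YFP+, against 1341 CPM in K8YFP-, with 0 higher and 10 lower, and the proliferation marker Mki67 averaged 120 CPM in K8YFP+ and 377 CPM in K8YFP-. Squamous differentiation markers summed to 25777 CPM in K8YFP+ and 7079 CPM in K8YFP-, and squamous basal markers to 3108 CPM in K8YFP+ and 9605 CPM in K8YFP-. Fibroblast markers summed to 352 CPM (70.1 to 661) in K8YFP+ and 53.8 CPM (14.5 to 76.5) in K8YFP-, with 7 of 9 called higher. Their part in the cilium result was not tested.

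Sox9cKO cells did not differ from SmoM2 cells in any of the 48 genes at adjusted p under 0.05 in edgeR, where 1.18% and 1.48% of all tested genes were called higher and lower. At an unadjusted p under 0.05, 6 genes were higher and 0 lower, and DESeq2 called 2 higher. Those 6 were Cc2d2a (0.45 ± 0.13, adjusted p = 0.0805) and Mks1 of the transition zone, Ift140 of IFT-A (0.43 ± 0.13, adjusted p = 0.101), Bbs1, Cep164 and Iqce, as log2 folds ± SE. Without Sox9cKO replicate 2 the count was 4 higher. The median log2 fold was 0.18 for the 48 genes and 0.00 for all genes. Tulp3 was 81.7, 41.7, 42.6 and 64.5 CPM in Sox9cKO, against 39.8 to 63.5 CPM in SmoM2 (0.36 ± 0.18, adjusted p = 0.299), and the groups overlapped. Gli1 had a log2 fold of 0.41 ± 0.14 (adjusted p = 0.122) and Ptch1 of 0.33 ± 0.18 (adjusted p = 0.314). Krt20, of simple epithelium, was lower in Sox9cKO cells (-3.52 ± 0.32, adjusted p = 0.000204).

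**Figure D4:**
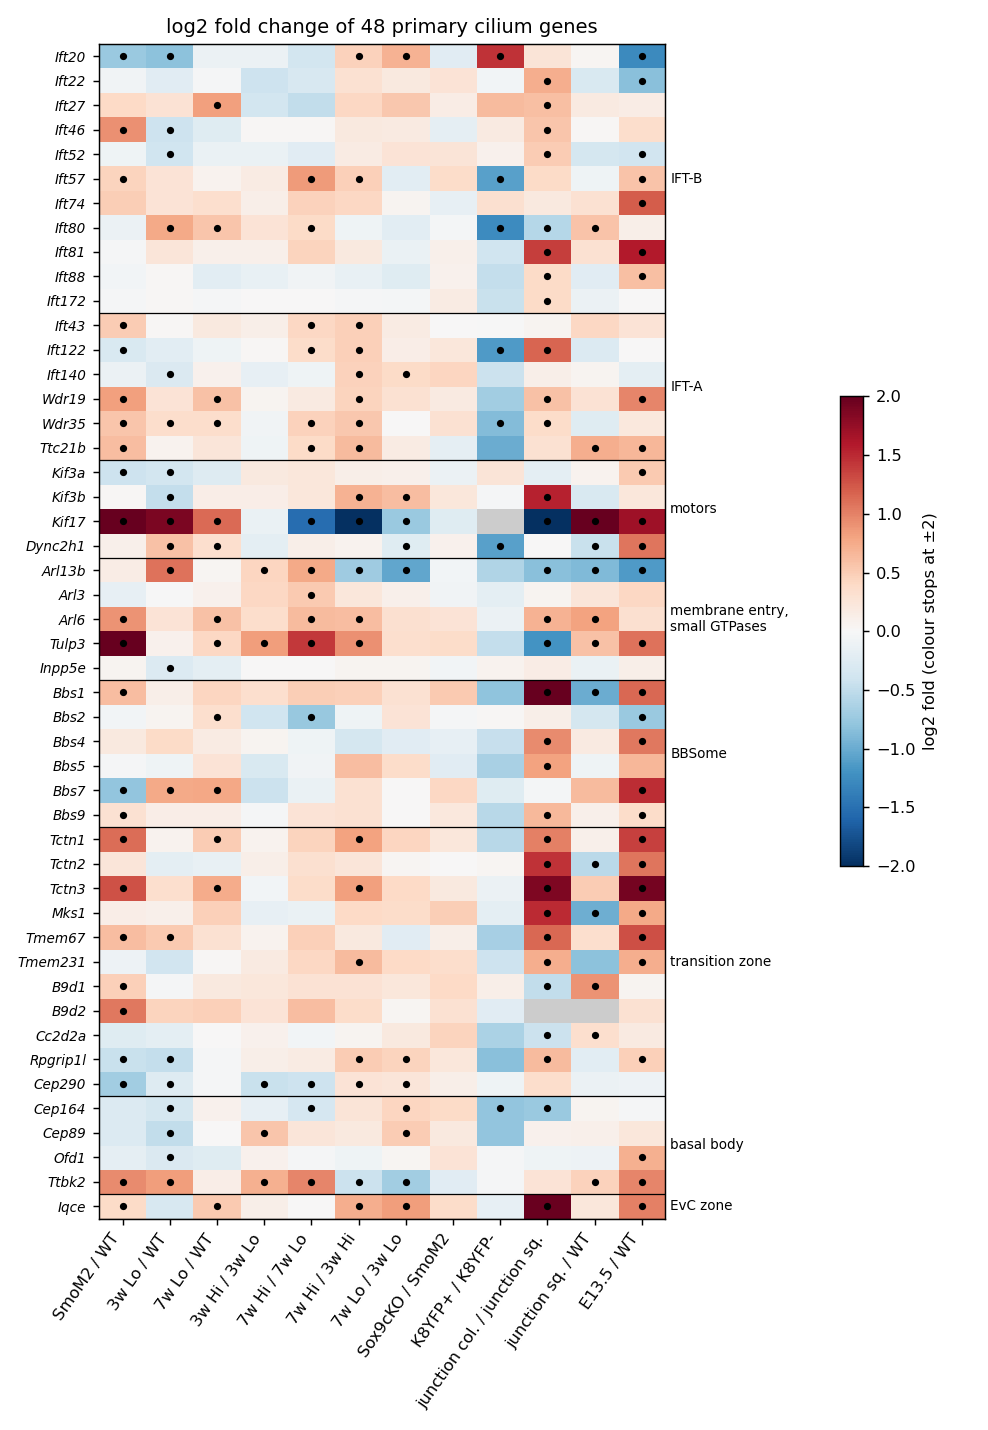
Log2 fold of each of the 48 genes (rows, by role) in 12 comparisons (columns), with colours that stop at 2 in either direction; dots mark adjusted p under 0.05 (edgeR) and grey marks genes not tested. Tulp3 is 2.09 in SmoM2 against WT and -1.20 in columnar against squamous junction cells, and the Sox9cKO column holds 0 dots.

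Columnar cells of the junction had nearly no Gli1 but more of many cilium transcripts than its squamous cells, neither of which carried SmoM2. The leading number of the raw names differs between these groups as well, and cannot be told apart from cell type. Of 47 genes tested, B9d2 being too low, 24 were higher and 7 lower in columnar cells (51.1% and 14.9%), where 39.2% and 35.2% of all tested genes were called. The median log2 fold was 0.38 for these genes and 0.08 for all genes. Gli1 was 0.307, 0.34, 0 and 0.181 CPM in columnar cells, against 17.5, 13.7 and 19.5 CPM in squamous cells (-6.41 ± 0.34, adjusted p = 1.68e-08), and Ptch1 did not pass (-0.24, adjusted p = 0.0879). Kif3b, of the heterotrimeric kinesin-2 that drives IFT, was 47.2, 52.8, 47.8 and 52.4 CPM in columnar cells, against 14.6, 11.8 and 15.1 CPM in squamous cells (1.54 ± 0.12, adjusted p = 4.62e-07). Iqce was 31.5, 38.6, 32.2 and 34.9 CPM in columnar cells, against 6.11, 5.99 and 8.98 CPM in squamous cells (1.97 ± 0.17, adjusted p = 8.91e-07). Both genes stood well apart.

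Among the higher genes were 7 of 11 IFT-B, 7 of 10 transition zone and 4 of 6 BBSome genes. The cargo adaptor Tulp3 went the other way, at 8.15, 8.68, 7.93 and 6.33 CPM in columnar cells, against 13.9, 12.8 and 16.7 CPM in squamous cells (-1.20 ± 0.17, adjusted p = 6.63e-05). Kif17 was 0, 0, 0.7 and 0.181 CPM in columnar cells, which is 4 counts in all, against 5.64, 6.15 and 4.13 CPM in squamous cells (-5.01 ± 0.59, adjusted p = 1.27e-05). The groups were apart for both genes, and Arl13b, B9d1, Cc2d2a, Cep164 and Ift80 were the other lower calls. Of 11 genes for Hedgehog steps at the cilium 0 were higher and 9 lower. Of 50 other cilium genes 20 were higher and 8 lower, with the lower Evc and Evc2 on both lists. Beside these counts, 39.2% and 35.2% of all tested genes were called higher and lower. Genes of the motile cilium summed to 148 CPM (140 to 159) in columnar cells and 96.5 CPM (95.1 to 99.2) in squamous cells, with 7 higher, among them Rsph9 (3.26 ± 0.33, adjusted p = 3.44e-06), and 2 lower of 10 tested. Immune markers summed to 291 CPM (189 to 427) in columnar cells and 21.9 CPM (16.8 to 25.5) in squamous cells, with 3 higher and 2 lower of 6 tested. Fibroblast markers summed to 27.9 CPM (15.4 to 42.7) in columnar cells and 26.8 CPM (18 to 35.7) in squamous cells, with 3 higher and 1 lower of 4 tested. Tuft cell markers summed to 3805 CPM (2455 to 4850) in columnar cells and 52.4 CPM in squamous cells, with 6 of 6 higher, and enteroendocrine markers to 3141 CPM (2192 to 4672) in columnar cells and 4.24 CPM in squamous cells, with 7 of 7 higher. Cell cycle genes summed to 959 CPM in columnar cells and 2100 CPM in squamous cells. The part of these lists in the result was not tested.

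Squamous junction cells against WT cells differ in strain, gate and leading number of the raw names, and share the WT libraries with other comparisons. Of 47 genes tested, 8 were higher and 5 lower in squamous junction cells (17% and 10.6%), where 18.4% and 16.5% of all tested genes were called, with medians of 0.06 and -0.01. Kif17 had a log2 fold of 2.51 ± 0.31 (adjusted p = 9.29e-05) and Ttc21b, of IFT-A, averaged 16.7 ± 0.409 CPM in squamous junction cells and 10.2 ± 0.905 CPM in WT (0.73 ± 0.14, adjusted p = 0.00161). Arl13b averaged 22.2 ± 1.06 CPM in squamous junction cells and 42 ± 9.7 CPM in WT (-0.89 ± 0.19, adjusted p = 0.00391), and Dync2h1 32 ± 2.15 CPM in squamous junction cells and 44.2 ± 4.12 CPM in WT (-0.44 ± 0.11, adjusted p = 0.0116). The call of Dync2h1 was lost without squamous junction replicate 1 or 2, and the 5 lower genes became 1 without either and 2 without WT replicate 4 or 6. They became 3 without squamous junction replicate 3 or without WT replicate 1 or 3. The 8 higher genes became 5 without squamous junction replicate 3. Gli1 had a log2 fold of 4.57 and Ptch1 of 0.69 over WT.

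Embryonic oesophagus at E13.5 differs from WT cells in age, strain and gate at once, with 2 embryonic libraries. Of the 48 genes, 24 were higher and 5 lower in embryo (50% and 10.4%), where 36.1% and 27.8% of all tested genes were called. The median log2 fold was 0.45 for the 48 genes and 0.16 for all genes, and DESeq2's size factors moved the median of all genes to 0.27. Without embryo replicate 1 the 5 lower genes became 3. Gli1 was 3.6 and 6.14 CPM in embryo, a log2 fold of 2.23 ± 0.38 over WT, and Ptch1 180 and 323 CPM, a log2 fold of 3.20 ± 0.26 (SE). Higher were 7 of 11 transition zone genes, 4 of 6 BBSome genes and 3 of 4 motor genes, while IFT-B had 4 higher and 3 lower. Ift81, the IFT-B subunit that helps to bind tubulin, was 28.6 and 30.3 CPM in embryo, against 4.15 to 8.77 CPM (median 7.09) in WT (1.59 ± 0.18, adjusted p = 4.63e-10). Tctn3, a tectonic protein of the transition zone, was 7.48 and 9.9 CPM in embryo, against 0.942 to 2.49 CPM (median 1.51) in WT (1.92 ± 0.28, adjusted p = 1.01e-07). Both were above every WT library.

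Ift20 was 15.6 and 12.8 CPM in embryo, against 18.3 to 36.8 CPM in WT (-1.27 ± 0.20, adjusted p = 7.06e-07), and Arl13b was 22.3 and 32.5 CPM in embryo, against 34.7 to 59 CPM in WT (-1.14 ± 0.24, adjusted p = 4.89e-05). Tulp3 was 28.4 and 31.8 CPM in embryo, with a log2 fold of 1.08 ± 0.18 over WT (adjusted p = 2.16e-06). The higher lists of embryo against WT and of columnar against squamous junction cells, whose groups share no library, had 14 genes in common, 58.3% of each, where the lists of all genes shared 41.3% and 49.5%. They include 7 transition zone genes, 3 BBSome genes (Bbs1, Bbs4, Bbs9), Ift81, Ift88, Wdr19 and Iqce. Of 51 other cilium genes 24 were higher and 4 lower in embryo, where 36.1% and 27.8% of all tested genes were called. Of the 12 genes for Hedgehog steps at the cilium 9 were higher and 0 lower. Of 14 motile cilium genes tested 9 were higher and 2 lower. Fibroblast markers summed to 316 CPM in embryo and 49.9 CPM in WT, with 8 of 10 higher, and 5 of 6 muscle markers were higher. Their part in the result was not tested.

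No gene could be called in all 13 contrasts, since the Sox9cKO contrast and the interaction held 0 calls. Every one of the 48 genes was called at least once. The same count over all genes is not given. In columnar against squamous junction cells alone 39.2% and 35.2% of all tested genes were called higher and lower, so this is not read as a trait of cilium genes. Tulp3 was higher in 7 and lower in 1, Arl6 and Iqce higher in 6 and lower in 0, and Wdr35 higher in 6 and lower in 1. Kif17, higher in 5 and lower in 4, and Cep290, higher in 2 and lower in 4, changed direction with the comparison. Arl13b was lower more often (5) than higher (3). Several contrasts share libraries, so these counts are not independent of each other. By mean CPM, embryo was the highest group for 22 of the 48 genes and columnar junction for 12, while gut was the lowest for 33 and K8YFP+ for 6. These ranks use library totals, and with TMM factors the lead of embryo and columnar junction in the sum shrank. No such count over all genes is given beside them.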

How the data were processed

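The authors deposited raw counts per gene for 51 libraries. Per the submitters' processing notes, STAR 2.5.3a, HTSeq and edgeR were used with build GRCm38 (mm10), and per the labels the libraries came from NuGEN Ovation Solo kits sequenced on a NovaSeq 6000. The sources used here give neither strand setting nor annotation release. Rows were matched by gene name, and coordinates, exon lengths and overlaps come from GENCODE M21 (GRCm38). CPM were computed from library totals. Each comparison was fitted with edgeR 4.0.16 in R 4.3.3 (quasi-likelihood F test, two-sided, TMM, filterByExpr with a minimum count of 10 and a minimum total of 15), with Benjamini-Hochberg adjustment over all genes tested and calls at adjusted p under 0.05. The contrasts of the 3-week and 7-week groups, and of their Lo cells with WT, come from 1 fit of these 4 groups and WT, and embryo against WT from all 51 libraries. The scripts were tested on simulated data. Alternatives were DESeq2 1.42.0, its size factors within edgeR, no filter, 1 fit of all 14 groups, WT pairs summed, a replicate block and leaving out each library.

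Replicate numbers were taken to pair libraries only where every same-numbered pair deviated together by r over 0.1. This held for K8YFP+ against K8YFP- (r 0.291 to 0.409) and 3w Hi against 3w Lo (r 0.165 to 0.295). The main fits of these comparisons used no block either, so their p-values leave this pairing out. Counts with the block are given beside the main ones. In each comparison the 4 called members with the smallest adjusted p per direction are given (2 for time, junction and embryo), with Gli1 and Ptch1, and up to 3 called genes per direction of other lists. Members and lists were chosen with earlier results of these data known. A count of 0 bounds a level only by 3 counts of the group total.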

Additional observations from a re-analysis of the deposited data

Results flagged for a closer look

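Single libraries far from the rest of their group were looked for in 94 sets of values, where chance alone flags about 1 in 20, and 7 were found. In SmoM2 replicate 4 stood high for Tulp3 (63.5 CPM, others 39.8 to 46.2) and for Gli1 (288 CPM, others 194 to 225). In 7w Hi replicate 1 stood low for Arl13b (70 CPM, others 85.2 to 88.2). In 7w Lo replicate 2 stood low for Kif3b (19.6 CPM, others 21.1 to 21.4), and in 3w Lo replicate 4 stood high for Ift20 (16.6 CPM, others 13.2 to 13.4). In WT replicate 1 stood high for Ift20 (36.8 CPM, others 18.3 to 23.5) and replicate 2 low for Ptch1 (15.3 CPM, others 18.8 to 20.4).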

How the results depend on the processing

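Over the alternatives 0 named genes changed direction, and 335 recomputed counts of called genes stayed within 1.5 times the value given while 47 moved; of the named genes' values, 37 lost their call and 6 gained one. In the fit of all 14 groups, 18 genes were lower in K8YFP+, 2 higher and 0 lower in 3w Hi, 7 higher in 7w Hi than in 7w Lo, 8 higher in 7w Lo than in WT, 2 lower in 7w Lo than in 3w Lo and 3 higher in Sox9cKO. DESeq2 gave 2 higher in Sox9cKO and 3 lower in squamous junction cells than in WT. With WT pairs summed there was 1 lower in 7w Lo and 2 lower in squamous junction cells, and without the filter 2 were lower in 7w Lo than in 3w Lo. With the replicate block, 4 were lower in 3w Hi, 17 higher and 6 lower in 7w Hi, 5 larger and 1 smaller in the interaction, 5 lower in 3w Lo and 4 higher in 7w Lo than in WT, 1 higher and 1 lower in squamous junction cells than in WT, and 12 higher and 2 lower in embryo. At 7 weeks every library correlated best with its own number although the lowest r was 0.0746, and outside K8YFP and 3 weeks libraries share only a number.

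Leaving out 1 library gave, as higher and lower genes, 14 to 18 and 5 to 7 for SmoM2, 0 to 4 and 0 for Sox9cKO, 1 and 1 to 5 for K8YFP+, 2 to 3 and 1 for 3w Hi, 6 to 11 and 3 to 5 for 7w Hi over 7w Lo, 0 to 1 and 0 for the interaction, 6 to 9 and 9 to 11 for 3w Lo, 9 to 12 and 0 to 2 for 7w Lo over WT, 13 to 15 and 3 to 4 for 7w Hi over 3w Hi, 6 to 9 and 2 to 4 for 7w Lo over 3w Lo, 19 to 26 and 5 to 7 for columnar junction, 5 to 8 and 1 to 5 for squamous junction, and 16 to 26 and 3 to 5 for embryo. The cause of these shifts was not tested. The lowest library total, 1606571 counts, is a K8YFP+ library's.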

Other observations

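Stomach and gut cells, sorted by YFP from Krt8YFP mice, enter no comparison (n = 2 each). Kif17 had 0 counts in both gut libraries and 1 count in stomach, where 3 counts of the group total are 0.466 and 0.277 CPM. Wdr35 was 0 and 1.1 CPM in gut and 5.77 and 5.01 CPM in stomach, and Ttc21b, another IFT-A gene, was 0.713 and 1.65 CPM in gut and 24 and 26 CPM in stomach. Ift20 ran the other way, at 36.4 and 45.4 CPM in gut and 34.9 and 32.9 CPM in stomach, and Tulp3 was 1.78 and 2.2 CPM in gut and 1.7 and 3.45 CPM in stomach. Foxj1, which drives motile cilia, was 0.787 and 0.94 CPM in stomach and 1.39 and 0.825 CPM in embryo, its highest group.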
